A study of Mus musculus with 6 samples.

Results

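Myosin light chains are the small subunits of the muscle motor. The 7 genes described here are 6 light chain genes of striated muscle, Myl1, Myl2, Myl3, Myl4, Myl6b and Mylpf, and the kinase gene Mylk2. Their members were all probe sets that the platform's gene table assigns to exactly 1 of these symbols. This gave 10 probe sets out of 45037 other than controls, for 7 of the 18193 genes that the table names by a single symbol. RNA came from whole gastrocnemius, the large calf muscle, of male C57B1/6 mice of normal karyotype, and was hybridised to 3 arrays of aged muscle (replicates 51, 52 and 53) and 3 arrays of young muscle (replicates 1, 2 and 3). The labels used here name no age in months, no treatment and no engineered allele in either group. Nothing in them states whether each array had its own animal, and p-values therefore cover only the variation among these 6 samples, part or all of which may be technical.

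A muscle myosin molecule is built of a pair of heavy chains, which hydrolyse ATP, and each heavy chain carries an essential and a regulatory light chain on its lever arm. In mammals the fast fibres of adult muscle use Myl1 as essential and Mylpf as regulatory chain, whereas slow fibres and the ventricle of the heart use Myl3 and Myl2. Myl6b is a further essential chain of slow muscle, and Myl4 is the essential chain of the atrium and of embryonic muscle. Mylk2 is the calmodulin-dependent kinase that phosphorylates the regulatory chain of skeletal muscle. The mouse gastrocnemius is composed mainly of fast fibres. The comparison of aged with young muscle asks which transcripts differ with age, and within the light chains it sets the slow isoforms beside the fast ones.

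The promoter windows of the slow chains Myl2 and Myl3, which fell together, and of their fast counterparts Mylpf and Myl1 are shown so that the slow and fast gene of each kind can be read side by side. They are RefSeq sequences of GRCm38.p6, which run from 250 bases before to 50 bases after a transcription start, and are written 5′ to 3′ on the gene's strand. Myl2 has a pair of listed starts, and the arrays do not tell which was used. Of the 7 genes 6 had a window in the table, and Mylk2 is named only. Capitals mark matches to motifs searched on both strands: the E-box CANNTG, bound by myogenic factors, MCAT (CATTCC), bound by TEAD factors, the MEF2 site and the CArG box of serum response factor.
Myl2, upstream start, regulatory slow chain (chr5:122092474-122092773, plus strand): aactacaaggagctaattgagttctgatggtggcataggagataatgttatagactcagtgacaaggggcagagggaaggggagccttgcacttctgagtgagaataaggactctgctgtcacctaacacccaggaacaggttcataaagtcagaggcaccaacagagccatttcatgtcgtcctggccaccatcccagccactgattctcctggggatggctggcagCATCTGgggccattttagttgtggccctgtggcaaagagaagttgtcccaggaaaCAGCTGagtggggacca
Myl2, downstream start (chr5:122092939-122093238, plus strand): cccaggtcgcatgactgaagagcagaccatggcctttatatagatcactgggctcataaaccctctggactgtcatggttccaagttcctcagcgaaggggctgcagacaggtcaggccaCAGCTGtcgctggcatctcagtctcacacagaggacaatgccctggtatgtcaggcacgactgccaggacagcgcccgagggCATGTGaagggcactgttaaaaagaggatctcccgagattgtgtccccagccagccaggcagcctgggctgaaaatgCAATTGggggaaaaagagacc
Mylpf, regulatory fast chain (chr7:127211358-127211657, plus strand): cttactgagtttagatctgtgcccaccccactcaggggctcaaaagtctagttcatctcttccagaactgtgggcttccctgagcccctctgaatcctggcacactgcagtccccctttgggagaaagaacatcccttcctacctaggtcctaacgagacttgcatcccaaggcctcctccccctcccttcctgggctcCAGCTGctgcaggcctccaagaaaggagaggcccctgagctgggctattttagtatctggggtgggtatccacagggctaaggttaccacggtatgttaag
Myl3, essential slow chain (chr9:110763428-110763727, plus strand): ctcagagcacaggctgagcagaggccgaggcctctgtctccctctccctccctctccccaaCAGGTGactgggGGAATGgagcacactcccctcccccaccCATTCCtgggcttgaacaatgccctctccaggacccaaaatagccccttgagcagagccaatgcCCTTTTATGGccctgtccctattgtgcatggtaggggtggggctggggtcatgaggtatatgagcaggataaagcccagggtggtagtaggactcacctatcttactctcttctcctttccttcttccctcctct
Myl1, essential fast chain (chr1:66945007-66945306, minus strand): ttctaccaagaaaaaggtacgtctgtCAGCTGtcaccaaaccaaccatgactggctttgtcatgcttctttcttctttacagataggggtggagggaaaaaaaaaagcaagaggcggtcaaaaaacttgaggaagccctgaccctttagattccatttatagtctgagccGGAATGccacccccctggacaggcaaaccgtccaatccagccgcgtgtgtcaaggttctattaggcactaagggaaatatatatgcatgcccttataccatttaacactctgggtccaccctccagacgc

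Among these 5 windows the CArG box was found only in that of Myl3, at bases 166 to 175, and it occurs in 1.63% of 32851 RefSeq promoter windows of this length. The Myl3 window also held MCAT at bases 74 to 79 and 102 to 107, and the Myl1 window held it at bases 171 to 176. MCAT occurs in 14.7% of all windows. Each of the 5 windows held at least 1 E-box, as did 72.3% of all windows. No MEF2 site was found in them, against 3.19% of all windows. No matches overlapped in the 5 windows. These matches describe letters only.

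The arrays were of like overall signal but differed in RNA quality and washing. Medians were 653.5 to 833.2 on aged and 636.7 to 730 on young arrays, and the log2 signals of any 2 arrays correlated at r of 0.66 to 0.75 over probe sets. The log2 ratio of 3 prime to 5 prime Gapdh control signal, a measure of RNA integrity, was 2.14, 2.15 and 3.05 on aged replicates 51, 52 and 53, against 1.66, 1.85 and 1.95 on young replicates 1, 2 and 3. Aged replicate 51 and all young arrays were washed on fluidics station 1, and aged replicates 52 and 53 on station 2 under another protocol name. Markers of skeletal muscle were bright in both groups: Acta1, the skeletal actin, had signals of 236700 to 249900 on aged and 353000 to 398500 on young arrays.

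The slow light chains were lower in aged muscle by far more than their spread. The fast ones were lower by about 1 on the log2 scale, where Myl1 passed the test near its threshold and Mylpf did not pass. Myl4, Myl6b and Mylk2 showed no difference that passed the test. Of the 10 probe sets 9 were bright enough to be tested, and 4 of them fell, for Myl2, Myl3 (on 2 probe sets) and Myl1. Across all 22519 tested probe sets 0.742% were called lower in aged muscle and 0.311% higher, and no member rose. Aged and young arrays did not overlap on 6 of the 9, all lower in aged muscle, against 8.74% of all tested probe sets that were separated in this direction. A change is the aged mean minus the young mean of log2 signal, given with limma's standard error (n = 3 arrays per group). Adjusted p-values come from limma after Benjamini-Hochberg adjustment across the whole tested table, and a call needs a value below 0.05. The median of all tested changes was 0.0079.

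**Figure D1:**
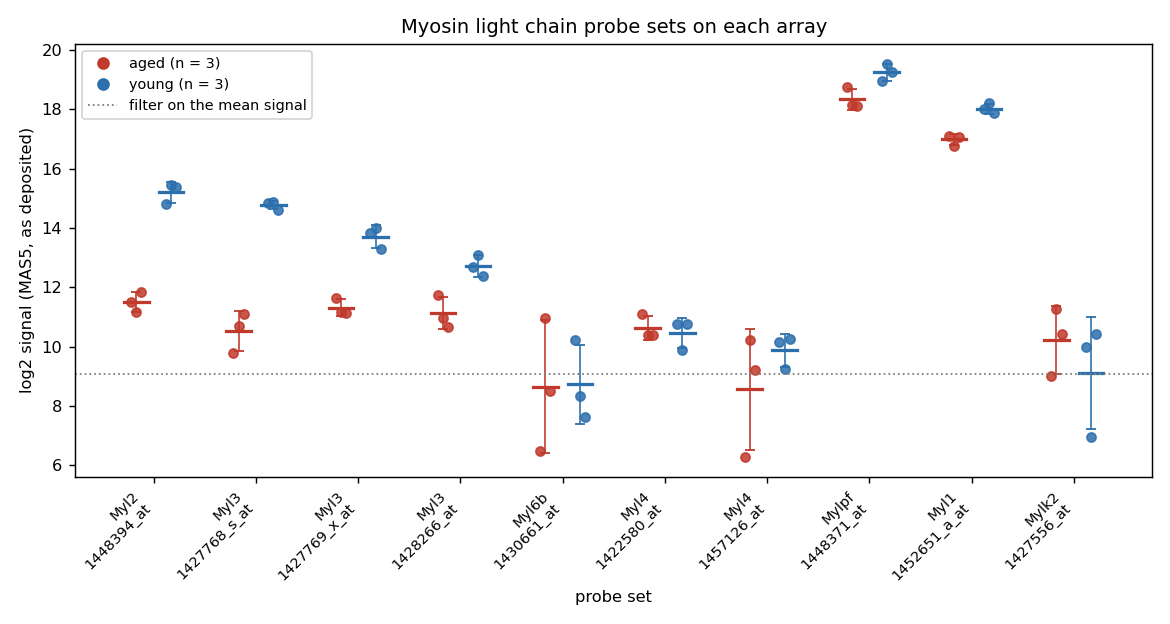
Log2 signal of the 10 probe sets on each of the 3 aged (red) and 3 young (blue) arrays, with group mean (bar) and SD (whisker); the dotted line marks the filter on mean signal at 9.08. The aged arrays lie below the young ones without overlap for Myl2, all 3 Myl3 probe sets, Mylpf and Myl1, while Myl4, Myl6b and Mylk2 overlap; heights of different probe sets cannot be compared.

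Myl2, the regulatory chain of slow fibres, had signals of 2896, 2325 and 3687 on aged replicates 51, 52 and 53, against 28400, 44410 and 42710 on young replicates 1, 2 and 3. All aged arrays were low and all young arrays high, and the lowest young signal was 7.7-fold above the highest aged one. On the log2 scale the means were 11.51 ± 0.33 in aged and 15.2 ± 0.36 in young muscle (SD, n = 3 each). The change was -3.69 ± 0.27 (adjusted p = 1.98e-05), which ranked 9th by p among the tested probe sets and corresponds to a geometric mean 12.9-fold higher in young muscle. The call was the same under all 17 alternatives tried. Within station 1, where a lone aged array stands against 3 young ones and is assumed to vary like them, Myl2 was at -3.71 (adjusted p = 0.000988). In whole muscle, fewer slow fibres and less Myl2 RNA per fibre cannot be told apart, and this holds for every gene here.

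Myl3, the essential chain of slow fibres, was measured by 3 probe sets, all lower in aged muscle but by unequal amounts. The brightest, 1427768_s_at, had signals of 879.3, 1641 and 2219 on aged replicates 51, 52 and 53, against 29150, 30060 and 24870 on young replicates 1, 2 and 3. The aged arrays were spread over 2.52-fold and the young ones over 1.21-fold, and the lowest young signal was 11.2-fold above the highest aged one. The change was -4.24 ± 0.33 (adjusted p = 4.22e-05), a geometric mean 18.9-fold higher in young muscle.

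The probe set 1427769_x_at, designed from the same Myl3 sequence record, had signals of 3199, 2279 and 2232 on aged and 14580, 16450 and 9905 on young replicates, in the same order. The groups were again apart, with the lowest young signal 3.1-fold above the highest aged one. It fell by 2.40 ± 0.29 (adjusted p = 0.00122). The third, 1428266_at, from another record, had signals of 3433, 2016 and 1637 on aged and 6607, 8743 and 5319 on young replicates. Its groups did not overlap, but the gap was smaller, at 1.55-fold, and its change of -1.59 ± 0.35 missed the threshold (adjusted p = 0.058). That probe set passed in 6 of 17 alternatives, among them the fit without aged replicate 51 (-1.89, adjusted p = 0.0157) and the fit without a filter (adjusted p = 0.0395). Aged replicate 51 was the lowest aged array on the first Myl3 probe set and the highest on the other two. Probe sets whose names carry s or x can also detect related transcripts, which was not tested. Within station 1 the changes of the 3 were -4.99, -2.06 and -0.98, in the same order.

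Myl1, the essential chain of fast fibres, had signals of 140100, 112400 and 138500 on aged replicates 51, 52 and 53, against 262900, 301600 and 239400 on young replicates 1, 2 and 3. All aged arrays were below all young ones, by 1.71-fold at the nearest, and arrays of a group differed by at most 1.26-fold. The change was -1.04 ± 0.22 (adjusted p = 0.0428), a geometric mean 2.06-fold higher in young muscle. This call was near the threshold and was lost in 10 of 17 alternatives: when any young array, aged replicate 51 or aged replicate 52 was left out (adjusted p 0.065 to 0.274), without the trend of the spread (0.468), after median centring (0.127), with the 3 prime to 5 prime ratio as a covariate (0.148), with the station as a covariate (0.195) and within station 1 (0.0892). The value itself stayed between -1.16 and -0.91 in all 17.

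Mylpf, the regulatory chain of fast fibres, had signals of 439300, 288500 and 283800 on aged replicates 51, 52 and 53, against 510500, 759700 and 626200 on young replicates 1, 2 and 3. The groups did not overlap, but aged replicate 51 came within 1.16-fold of young replicate 1. The change was -0.92 ± 0.27 and did not pass (adjusted p = 0.201), nor did it under any alternative (0.0628 to 0.576). Within station 1 it was at -0.51. Mylpf ranked 14th and Myl1 90th in mean signal among 45037 probe sets. The deposited table carries no flags for saturated probes, and the median change over the brightest 1% of probe sets was -0.17.

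Myl4, the atrial and embryonic essential chain, had signals of 2181, 1347 and 1346 on aged replicates 51, 52 and 53, against 1733, 944.3 and 1719 on young replicates 1, 2 and 3. The groups overlapped, and the change was 0.16 ± 0.46 (adjusted p = 0.925). Its sign turned without young replicate 2 (-0.13) or aged replicate 51 (-0.07). The dimmer Myl4 probe set, 1457126_at, had 77.81, 1185 and 587.7 on aged and 1151, 604.2 and 1210 on young replicates, again overlapping. Its change of -1.32 ± 1.06 did not pass (adjusted p = 0.712) and moved widely between settings, from -0.18 without aged replicate 51, the array with the lowest signal, to -2.14 without aged replicate 52 and -3.60 within station 1 and with the station as a covariate.

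Myl6b, the further essential chain of slow muscle, was too dim for the filter. Its signals were 89.59, 1990 and 359.2 on aged replicates 51, 52 and 53, against 1183, 324.1 and 197.4 on young replicates 1, 2 and 3. Arrays of a group differed by up to 22.2-fold in aged and 5.99-fold in young muscle, and the groups overlapped. In the fit without a filter its change was -0.08 ± 1.21 (adjusted p = 0.994).

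Mylk2, the skeletal light chain kinase, had signals of 513.2, 2479 and 1375 on aged replicates 51, 52 and 53, against 1009, 124 and 1363 on young replicates 1, 2 and 3. Young replicate 2 was far below every other array, and the groups overlapped. The change was 1.12 ± 0.95 (adjusted p = 0.729). It was 0.04 without young replicate 2, and -0.11 within station 1 and with the station as a covariate, which give the same estimate by construction.

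**Figure D2:**
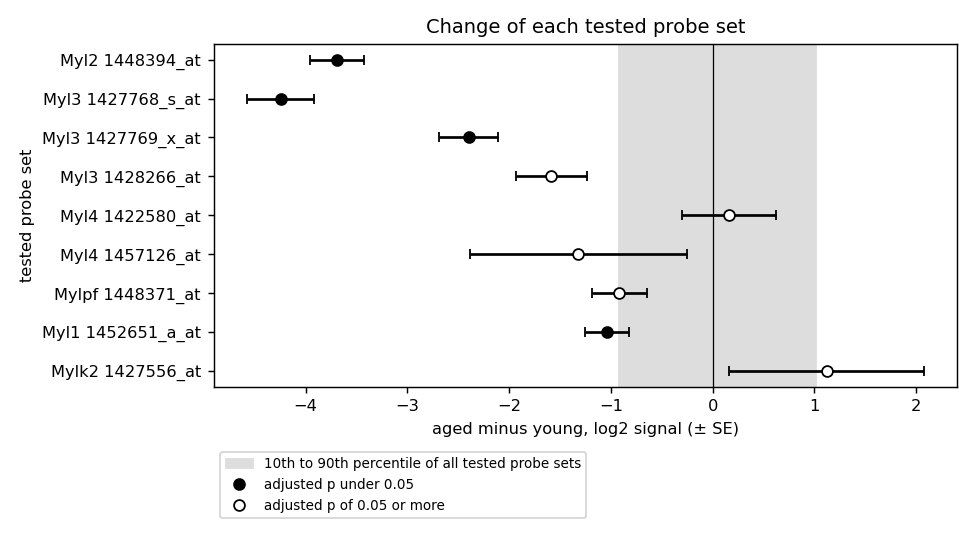
Change (aged minus young, log2) with standard error for the 9 tested probe sets; filled points have an adjusted p below 0.05, and the grey band spans the 10th to 90th percentile of all tested probe sets, -0.92 to 1.02. Myl2 (-3.69) and the brightest Myl3 probe set (-4.24) lie far left of the band, and Mylk2 (1.12) and Myl4 1457126_at (-1.32) have the widest errors.

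**Figure D3:**
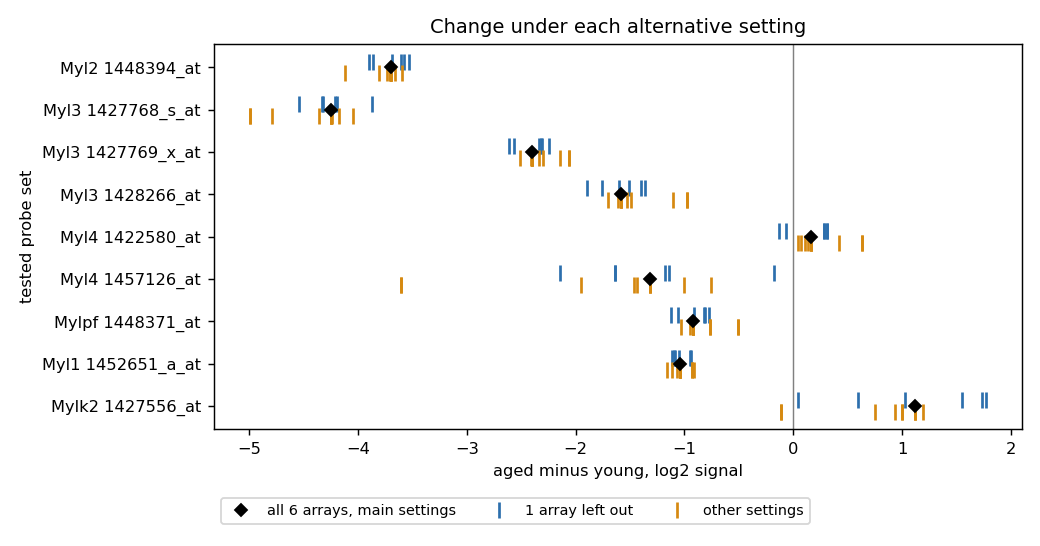
Change (aged minus young, log2) of the 9 tested probe sets with all arrays (diamond), with 1 array left out (blue ticks) and under other settings (orange ticks). The ticks of Myl2, Myl3, Myl1 and Mylpf stay left of 0, whereas those of Mylk2 and of Myl4 1422580_at lie on both sides.

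The ratio of a slow to a fast chain on the same array cancels the scaling of that array. Only its difference between arrays can be read, since the probe sets of different genes do not share a scale. For the regulatory chains the log2 ratio of Myl2 to Mylpf was -7.25, -6.96 and -6.27 on aged replicates 51, 52 and 53, against -4.17, -4.10 and -3.87 on young replicates 1, 2 and 3. Every aged array was lower, and the young arrays lay close together. The means were -6.82 ± 0.50 in aged and -4.05 ± 0.15 in young muscle (SD, n = 3 each), so the ratio was 6.85-fold lower in aged muscle (difference -2.78, exact permutation p = 0.1, two-sided). With 3 arrays against 3 an exact test cannot give a p below 0.1, so these ratios are read against their spread only.

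For the essential chains the log2 ratio of Myl3 to Myl1 was -7.32, -6.10 and -5.96 on aged replicates 51, 52 and 53, against -3.17, -3.33 and -3.27 on young replicates 1, 2 and 3. The aged arrays were again all lower, with a wider spread (SD 0.75) than the young ones (SD 0.077). The difference was -3.20, or 9.21-fold (exact permutation p = 0.1). It depended on the Myl3 probe set: with 1427769_x_at the difference was -1.36 without overlap, and with 1428266_at it was -0.55 with overlapping groups (exact permutation p = 0.2). Averaging the tested probe sets of Myl3 gave -1.70. Within station 1 the differences were -3.20 for Myl2 over Mylpf and -4.06 for Myl3 over Myl1.

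Ratios with Myl4 and Myl6b on top did not fall. Myl4 over Myl1 was -6.01, -6.38 and -6.69 on aged replicates 51, 52 and 53, against -7.25, -8.32 and -7.12 on young replicates 1, 2 and 3. Aged arrays were higher without overlap (difference 1.20, exact permutation p = 0.1), while Myl4 itself overlapped between the groups. With both Myl4 probe sets averaged the difference was 0.46. Myl6b over Myl1 overlapped widely (difference 0.96, exact permutation p = 0.7), and it was -1.31 within station 1 and -0.30 without aged replicate 52. Between the fast chains, Myl1 over Mylpf differed by -0.12 with overlapping groups (exact permutation p = 0.6). Between the slow chains the difference turned with the Myl3 probe set. With 1427768_s_at, Myl3 over Myl2 differed by -0.55 with overlapping groups (exact permutation p = 0.5). With 1427769_x_at and 1428266_at it was higher on every aged array, with differences of 1.30 and 2.11 (exact permutation p = 0.1 for each). Which slow chain fell further therefore cannot be told from these arrays.

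**Figure D4:**
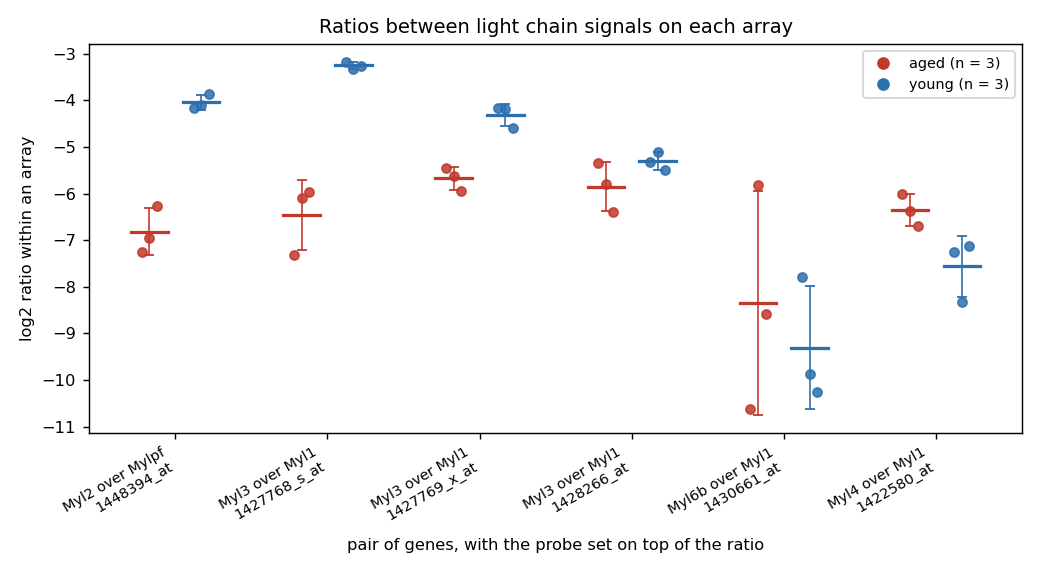
Log2 ratio between the signals of a pair of genes on each aged (red) and young (blue) array, with group mean and SD; labels give the probe set on top of the ratio, and Myl3 appears with each of its 3 probe sets. Myl2 over Mylpf and the brightest Myl3 probe set over Myl1 are lower on all 3 aged arrays, with differences of -2.78 and -3.20, and with Myl3 1428266_at the difference is -0.55.

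The slow light chains fell beside their slow-fibre partners. Of 16 tested partner genes of slow fibres 7 fell, 0 rose and 9 did not pass, and 15 had a negative change (median -1.80). The exception, named after its values were seen, was the heavy chain gene Myh7b (0.87 ± 0.56, adjusted p = 0.638). It was higher on every aged array, but its lowest aged signal, 1206, was close to its highest young one, 1200. Over all 11763 tested genes 1.00% were called lower and 0.391% higher, 49.8% had a negative change and the median was 0.0028. The slow heavy chain Myh7, which carries Myl2 and Myl3, had signals of 323.7, 2801 and 211.4 on aged replicates 51, 52 and 53, against 10540, 19470 and 15670 on young replicates 1, 2 and 3. All aged arrays were low, with aged replicate 52 well above the others, and the change was -4.68 ± 0.74 (adjusted p = 0.00719). The slow troponin T Tnnt1 (-4.77 ± 0.51), the slow and cardiac troponin C Tnnc1 (-3.00 ± 0.30) and the Z-disc proteins Myoz2 (-2.63 ± 0.26) and Csrp3 (-3.55 ± 0.61) fell as well. So did Ankrd2 (-2.13 ± 0.23) and the calcium pump Atp2a2 (-2.05 ± 0.22). The 2 other tested Atp2a2 probe sets were at -2.40 and -0.73, and 0 of them passed. For the tropomyosin gene Tpm3, chosen after its values were seen, the change of the brightest probe set was -0.58 and missed the threshold, while 2 of its 3 others passed and the lowest was at -4.16. The limma call of Myh7 was lost in 3 of 17 alternatives. With the 3 prime to 5 prime ratio as a covariate its change was -3.42 (adjusted p = 0.203). It also missed the threshold without the trend of the spread (0.257) and without young replicate 2 (0.0533). Csrp3 was lost in 3 as well, without the trend (0.299) and without young replicate 2 (0.0841) or 3 (0.0505). Leaving out 1 array left 5 to 10 of the 16 past the test, and 2 passed without the trend of the spread.

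The fast light chains stood among smaller changes. Of 18 tested partner genes of fast fibres 2 fell, 0 rose and 16 did not pass, and 16 had a negative change (median -0.56). The heavy chain of type 2A fibres, Myh2, had signals of 51140, 30900 and 43000 on aged replicates 51, 52 and 53, against 237900, 246300 and 162200 on young replicates 1, 2 and 3. The groups were far apart, and it fell by 2.38 ± 0.25 (adjusted p = 0.000497). The muscle phosphoglycerate mutase Pgam2 fell by 1.02 ± 0.21 (adjusted p = 0.0443), close to the change of Myl1, and its call was likewise lost in 10 of 17 alternatives (adjusted p 0.0611 to 0.485). Tropomyosin Tpm1 (-1.06 ± 0.23, adjusted p = 0.0601) and the calcium buffer Pvalb (-0.95 ± 0.24, adjusted p = 0.104) did not pass. Myh4, the heavy chain of type 2B fibres and a partner of Myl1 and Mylpf, was at -0.15 ± 0.26 with overlapping groups (adjusted p = 0.872; chosen after its values were seen). Leaving out 1 array left 1 to 4 of the 18 past the test, and 0 passed without the trend.

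Of 8 general muscle markers all had a negative change by their brightest probe set (median -0.43), and 1, the Z-disc protein gene Actn2, fell (-1.88 ± 0.27, adjusted p = 0.00372). Among their other tested probe sets, those of Des (0.48) and Cox6a2 (0.10) were positive, and those of Ckm and Ttn negative. Acta1 was at -0.63 ± 0.22, the creatine kinase Ckm at -0.77 ± 0.27 and Myot at -0.58 ± 0.21, and none of these passed. Within station 1 the median of the 8 was -0.73. Among the 8, only Actn2 had a lower change than the fast chains Myl1 (-1.04) and Mylpf (-0.92).

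**Figure D5:**
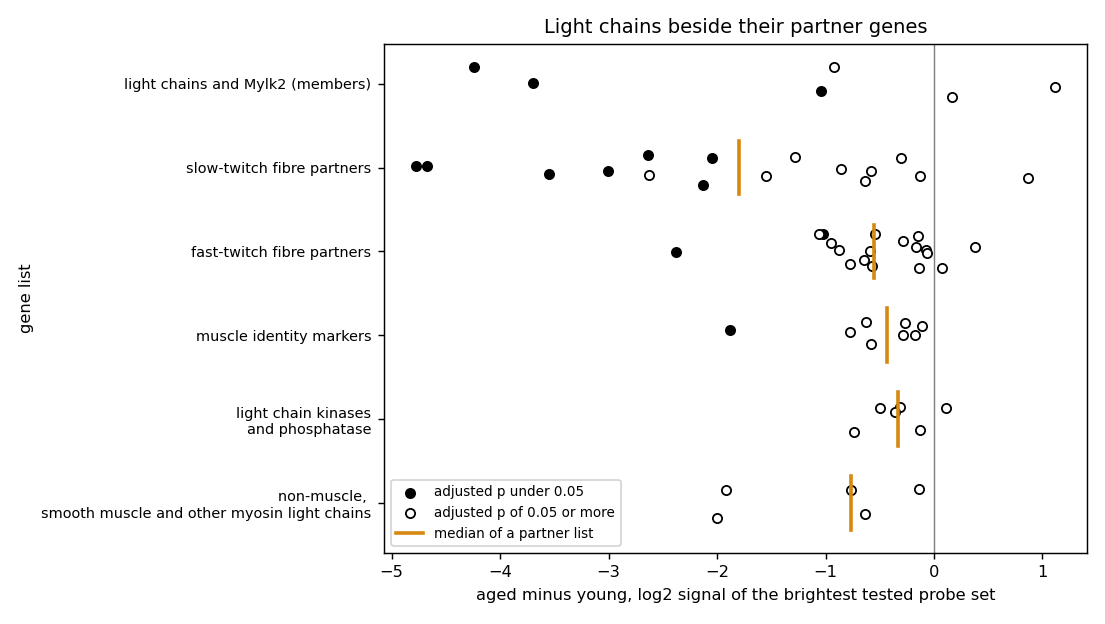
Change (aged minus young, log2) of the brightest tested probe set of each light chain gene and Mylk2, and of each tested gene in 5 partner lists; filled points have an adjusted p below 0.05 and orange bars give the median of a partner list. Slow-fibre partners reach -4.77 with a median of -1.80, and fast-fibre partners cluster near their median of -0.56 with Myh2 apart at -2.38.

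Few other genes around the light chains differed. Of 6 tested genes of light chain kinases and the myosin phosphatase 0 passed (median -0.34). They were led by the smooth muscle kinase Mylk (-0.73 ± 0.25, adjusted p = 0.312) and by the phosphatase subunits Ppp1r12a (-0.32 ± 0.23), Ppp1r12b (-0.36 ± 0.32) and Ppp1r12c (-0.50 ± 0.54). The groups did not overlap for Mylk and Ppp1r12b. The other tested probe set of Mylk went the other way, at 0.25, and the 2 others of Ppp1r12b were at -1.50 and 0.51. At an unadjusted p under 0.05 there was 1, Mylk, against 2262 of all 22519 tested probe sets. Of 5 tested light chains of smooth muscle, non-muscle and other cells 0 passed and all were negative (median -0.77), with Myl12a at -0.64 ± 0.21, Myl10 at -2.00 ± 0.77, Myl6 at -1.92 ± 0.87 and Myl9 at -0.77 ± 0.98. At an unadjusted p under 0.05 there were 3 of the 5, Myl12a, Myl10 and Myl6, beside the same 2262 of 22519 over the whole table. Of 16 tested regulators of fibre type Rcan1, a calcineurin target and inhibitor, fell by 1.43 ± 0.26 (adjusted p = 0.0191), and 15 did not pass (median 0.14), among them Tbx15 (0.83 ± 0.23), Eya1 (1.06 ± 0.35) and Esrrg (1.11 ± 0.72). The other tested probe sets of Tbx15 (0.87) and Eya1 (0.73) were positive too, but those of Esrrg were at -1.13 and -0.002. The call of Rcan1 was lost in 9 of 17 alternatives (adjusted p 0.0505 to 0.317), among them both station settings and the fits that left out any 1 young array or aged replicate 52.

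Of 10 tested genes of developing muscle 1 fell and 9 did not pass. This was Actc1, the cardiac actin that embryonic and regenerating muscle also uses, with signals of 16740, 8602 and 17690 on aged replicates 51, 52 and 53, against 150300, 134200 and 143700 on young replicates 1, 2 and 3. The groups were far apart (-3.38 ± 0.27, adjusted p = 4.54e-05). Myh8 and Chrng were too dim to be tested. The signals of Myh8 were 810.3, 282.5 and 825.1 on aged replicates 51, 52 and 53, against 115.9, 127.7 and 37.77 on young replicates 1, 2 and 3. Dim as it was, Myh8 was thus higher on every aged array, and Chrng overlapped between the groups. Myog (-1.92 ± 0.64), Cdh15 (1.10 ± 0.55) and Mymx (-1.60 ± 0.91) did not pass.

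Since Myl2, Myl3 and Myl4 are also heart genes, cardiac markers were examined. Of 7 on the array 4 were too dim to be tested (Nppa, Tnni3, Myl7 and Ryr2), and none of Myh6 (1.41 ± 1.07), Nppb (0.43 ± 0.61) and Gja1 (-0.05 ± 0.35) passed, nor had any of these 3 an unadjusted p under 0.05 in limma. The summed signal of the 7 was 16340 to 29950 on aged and 17970 to 24180 on young arrays. Most of it was Gja1, at 9068 to 26180 on aged and 13400 to 22620 on young arrays, so the sum says little of the others. The dim Nppa had 1457, 737.7 and 1040 on aged replicates 51, 52 and 53, against 92.41, 641.2 and 115.5 on young replicates 1, 2 and 3, without overlap.

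Some markers of other cells moved with age beside the light chains. All 6 fibroblast and matrix markers were negative by their brightest probe set. Of these 3 collagen genes fell, Col1a2 (-4.62 ± 0.22), Col3a1 (-3.89 ± 0.21) and Col1a1 (-5.71 ± 0.32). Dcn (-0.73 ± 0.20) did not pass, and its other tested probe set went the other way, at 1.60, and did not pass either. Lum (-1.91 ± 0.54, without overlap) and Pdgfra (-0.23 ± 0.31, with overlapping groups), named after their values were seen, did not pass. Summed signals of the 6 were 70620 to 80830 on aged and 689100 to 923600 on young arrays. Most of this was the 3 collagen genes on young arrays, and Dcn on aged arrays, at 37760 to 48260. The sum thus says little of the others. Of 4 tested adipocyte markers 3 rose by their brightest probe set, Retn (2.35 ± 0.36), Adipoq (1.89 ± 0.30) and Fabp4 (1.11 ± 0.23). Cidec (1.63 ± 0.60) did not pass. The 3 other tested Fabp4 probe sets ran from -0.63 to 1.01, and 0 of them passed. Sums were 147700 to 251800 on aged and 70940 to 82540 on young arrays. Most of this was Fabp4, at 115500 to 196600 on aged and 63550 to 75000 on young arrays. Of 3 tested smooth muscle markers Acta2 fell (2.01-fold higher in young muscle, adjusted p = 0.0275) and Tagln (-1.16 ± 0.71) did not pass, with sums of 28520 to 32790 on aged and 53130 to 64140 on young arrays over all 6, of which Myh11, Cnn1 and Smtn were dim. The calls of Acta2 and of Fabp4 were each lost in 9 of 17 alternatives, in both cases with the station in the fit (adjusted p 0.14 and 0.288), within station 1 (0.0833 and 0.131) and when any 1 young array or aged replicate 52 was left out. With the station in the fit Retn (adjusted p = 0.105) and Adipoq (0.0695) did not pass either, so that 0 of the adipocyte calls were left. Without the trend 0 were left as well. There was 1 without young replicate 2, and 1 with the 3 prime to 5 prime ratio as a covariate. The changes of Acta2, Retn, Adipoq and Fabp4 kept their sign in all 17, and the 3 collagen genes passed in all 17. Of 5 satellite cell markers 0 passed, with sums of 4540 to 6168 on aged and 4411 to 5071 on young arrays. Of these Itga7 (1.62 ± 0.67) alone had an unadjusted p under 0.05, a level that 2262 of all 22519 tested probe sets reached, and Cdh15, Pax7 (-1.87 ± 0.97) and Myf5 (-1.57 ± 1.00) did not. The part of these cells in the light chain results was not tested.

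Over the 6 arrays, the log2 signals most like those of Myl2 by Pearson correlation, outside the 7 genes, were those of Atp2a2 (r = 0.993), Afap1l1 (0.991), Cd93 (0.991), Col1a2 (0.99) and Id4 (0.989). Of these Atp2a2, Cd93 and Col1a2 passed the test between the groups. Those most like Mylpf were Abcc2 (0.989), Aopep (0.988), Pvalb (0.982), Nudt1 (0.979) and Ddx56 (0.976), none of which passed. Myl2 itself correlated with Myl3 at 0.977, with Myl1 at 0.974 and with Mylpf at 0.886. All these points share the arrays and their split into 2 groups, and 311 genes had r above 0.9 with Myl2, so these values describe likeness only.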

How the data were processed

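Biotin-labelled cRNA of 6 samples was hybridised to 6 Mouse430_2 arrays, per the labels' protocols and the file headers. The deposited values are linear intensities, 1 for each probe set. MAS5 produced them, per the submitters' processing notes, and its version is not given in the sources used here. Every array had a mean of 1500 after trimming 2% at each end, so each had been scaled to it, and such scaling assumes alike totals. The array run files, deposited with each sample, hold settings rather than expression values, and of these other values only the fluidics station and protocol were used.

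Intensities were taken to log2, 64 control probe sets were left out, and so were probe sets whose mean log2 signal lay below the median, 9.08 (a signal of 540). Aged and young arrays were compared over the 22519 remaining probe sets with limma 3.58.1 in R 4.3.3 (lmFit, eBayes with a trend, two-sided, Benjamini-Hochberg adjustment, threshold 0.05). A gene in a list was represented by its brightest tested probe set. Ratios were compared with exact permutation tests in scipy 1.17.1, and figures were drawn with matplotlib 3.10.9. The calling was tested on simulated data. The number of arrays limits the precision, and the median standard error of a change was 0.56.

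Gene names are those of the platform's table, which gives 34945 probe sets a single symbol and 932 several, which stayed unnamed. From each list the 4 genes with the smallest p and any that passed are named, and for likeness the 5 genes with the highest correlation. The members, lists and tests were chosen with earlier results of these data known, so the falls of Myl1, Myl2, Myl3 and the slow-fibre genes are no independent support. Listed genes without a probe set of their own symbol alone were not analysed here. The alternatives tried were median centring, quantile normalization, no filter, only the brightest 25% of probe sets, a pseudocount of 218.8 (the 25th percentile of signals), eBayes without the trend or robust, array weights, the station or the 3 prime to 5 prime ratio as a covariate, station 1 alone, and each array left out.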

Additional observations from a re-analysis of the deposited data

How the results depend on the processing

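The number of called probe sets among all tested, 237, moved to 21 with eBayes run without its trend, 365 within station 1 and 129 with the 3 prime to 5 prime ratio as a covariate, and lay between 124 and 342 with 1 array left out (131, 124 and 152 without young replicates 1, 2 and 3, and 149 without aged replicate 52). Of the light chain probe sets 4 were called, 2 without the trend, 3 to 5 in the other alternatives and 3 to 4 with 1 array left out. Myl2 and the brightest Myl3 probe set passed in all 17 alternatives each, with changes of -4.12 to -3.53 and -4.99 to -3.87. Myl3 1427769_x_at was lost in 1, without the trend (-2.40, adjusted p = 0.176). The sign of Mylk2 turned with the station as a covariate and within station 1 (-0.11 in both), and its change ran from 0.04 to 1.77 with 1 array left out. Myl4 1422580_at ran from -0.13 to 0.31 with 1 array left out. The ratio of Myl6b to Myl1 turned to -1.31 within station 1 and ran from -0.30 to 2.10 with 1 array left out. The differences of Myl2 over Mylpf, Myl3 over Myl1 and Myl4 over Myl1 kept their direction in the 10 alternatives of each, at -3.20 to -2.56, -4.06 to -1.70 and 0.46 to 1.56. For Myl2 over Mylpf, averaging the probe sets of a gene gave the main value by construction, since each has a single probe set. The cause of the shifts between settings was not tested. Median centring moved the median of all tested probe sets to -0.11, against 0.0079 as deposited. Without the trend the calls of Actc1, Actn2 and Myh2 were lost as well. Dim probe sets limit what can be said of Myl4, Myl6b and Mylk2. No paired analysis was possible because aged and young arrays share no replicate numbers.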
